A study of Homo sapiens with 41 samples.

Results

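The genes of the NF-kappa B transcription factors and of their feedback regulators were followed through hyperosmotic stress in T47D cells. They were the 7 genes NFKB1, NFKB2, RELA, RELB, NFKBIA, BCL3 and TNFAIP3, chosen by name out of 19970 protein-coding genes on chromosomes 1 to 22 and X, and each was found in the RefSeq table of GRCh38.p14. For each gene, the share of its span and of the 10 kb on either side that lay under RNA polymerase II (Pol II) regions was measured, together with the peaks of CTCF and RAD21 in the span or within 10 kb of it.

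T47D cells are an established line from a human luminal breast tumour. In every group the cells had been depleted of steroid hormones and then kept without serum before treatment. The groups were 1 h of 110 mM NaCl (3 CTCF, 3 RAD21 and 2 Pol II libraries), 1 h of NaCl followed by 60 min back in isotonic medium, called recovery (1 CTCF and 3 RAD21 libraries), 7.5 min of NaCl (2 CTCF libraries), 30 min of NaCl (1 CTCF library), and no stress (3 CTCF, 3 RAD21 and 2 Pol II libraries). A second submission of 12 libraries, called set 2, contributed replicate 3 of these CTCF and RAD21 groups, the CTCF recovery library and 1 CTCF and 1 RAD21 library per condition with 500 nM triptolide given for 2 h before no stress, NaCl or recovery. Triptolide blocks the initiation of transcription. Each library gave 1 list of called peaks, 29 lists in all, and the labels do not say whether replicates were separate cultures, so p-values reflect only how these libraries vary, which may be technical.

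NF-kappa B proteins are dimers that bind kB sites in DNA. NFKB1 and NFKB2 encode precursors of the p50 and p52 subunits, and RELA and RELB encode the subunits p65 and RelB that carry transactivation domains. NFKBIA encodes IkBalpha, which holds dimers in the cytoplasm, BCL3 encodes a nuclear IkB-family protein that works with p50 and p52 dimers, and TNFAIP3 encodes A20, a ubiquitin-editing enzyme that restrains signalling upstream of the kinase IKK. NFKBIA and TNFAIP3 are textbook NF-kappa B targets whose products close a negative feedback loop.

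CTCF, the DNA-binding insulator protein, held a peak at the promoter of TNFAIP3 (811 bp inside its RefSeq span, over the window of an annotated start within it) and at the 5′ end of NFKB2 in all 13 CTCF lists. The RefSeq promoter windows of both genes run from 250 bases before to 50 bases after an annotated start. They are shown because they carry the same 12 letters of the CTCF core motif. The window of NFKBIA is shown because a CTCF site overlapped it while the window held no such match. That site (chr14:35403914-35404995), merged from peaks of 10 lists, lay mostly outside the window, over bases that were not searched for the motif. The summits of the strongest peak in each list ran from chr14:35404621 to 35404764, on both sides of the window's edge at 35404700. Capitals mark the CTCF core match in TNFAIP3 and NFKB2, and the kB match in NFKBIA. All are on GRCh38.p14 and read 5′ to 3′ on the gene's strand.
TNFAIP3 promoter (chr6:137867009-137867308, plus strand): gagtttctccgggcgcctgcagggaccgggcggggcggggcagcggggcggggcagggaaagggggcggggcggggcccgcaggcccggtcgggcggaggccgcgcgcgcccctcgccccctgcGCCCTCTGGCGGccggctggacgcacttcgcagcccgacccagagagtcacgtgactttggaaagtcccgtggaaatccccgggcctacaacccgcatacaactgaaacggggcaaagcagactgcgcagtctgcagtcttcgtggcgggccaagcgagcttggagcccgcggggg
NFKB2 promoter (chr10:102393860-102394159, plus strand): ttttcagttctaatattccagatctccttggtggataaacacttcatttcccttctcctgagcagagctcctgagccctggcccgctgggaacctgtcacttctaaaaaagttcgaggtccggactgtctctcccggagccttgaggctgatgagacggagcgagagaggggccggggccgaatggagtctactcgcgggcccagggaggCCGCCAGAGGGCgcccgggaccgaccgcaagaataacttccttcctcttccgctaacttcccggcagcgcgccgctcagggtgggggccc
NFKBIA promoter (chr14:35404700-35404999, minus strand): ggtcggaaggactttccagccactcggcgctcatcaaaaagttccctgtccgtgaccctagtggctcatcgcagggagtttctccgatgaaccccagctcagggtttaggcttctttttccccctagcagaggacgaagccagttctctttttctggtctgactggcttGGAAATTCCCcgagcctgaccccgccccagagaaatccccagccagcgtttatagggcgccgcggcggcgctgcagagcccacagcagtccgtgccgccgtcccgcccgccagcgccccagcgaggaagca

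The CTCF core was searched on both strands as CC, any 3 bases, AG, any 2 bases and GGC. TNFAIP3 held it on the opposite strand at chr6:137867133-137867144 and NFKB2 on the same strand at chr10:102394070-102394081, and read on the strand of the motif both matches were CCGCCAGAGGGC. The window at a later start of NFKB2 held another match (chr10:102395460-102395471, CCGGGAGGAGGC), with no CTCF peak over it in any of the 13 lists. Of 22155 promoter windows in the RefSeq table, 2736 (12.3%) held a match to the core. A CTCF peak lay over 357 of those 2736 windows (13%) in all 13 lists, against 427 of the 19419 windows without a match (2.2%). The exact letters CCGCCAGAGGGC occurred in 11 windows, and 9 of these, TNFAIP3 and NFKB2 among them, lay under a CTCF peak in all 13 lists.

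CTCF summits sat close to the match. At TNFAIP3 the nearest summit of each list was 4.5 to 41.5 bp from the centre of the match, with a median of 21.5 bp over 13 lists. NFKB2 had distances of 4.5 to 20.5 bp with a median of 12.5 bp over 13 lists. RAD21, a subunit of the cohesin ring that CTCF halts, had summits 9.5 to 33.5 bp from the TNFAIP3 match in the 9 of 12 lists with a peak there, and 28.5 to 78.5 bp from the NFKB2 match in 6 lists. The RAD21 summits fell on both sides of the match at TNFAIP3 and on 1 side at NFKB2.

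**Figure D1:**
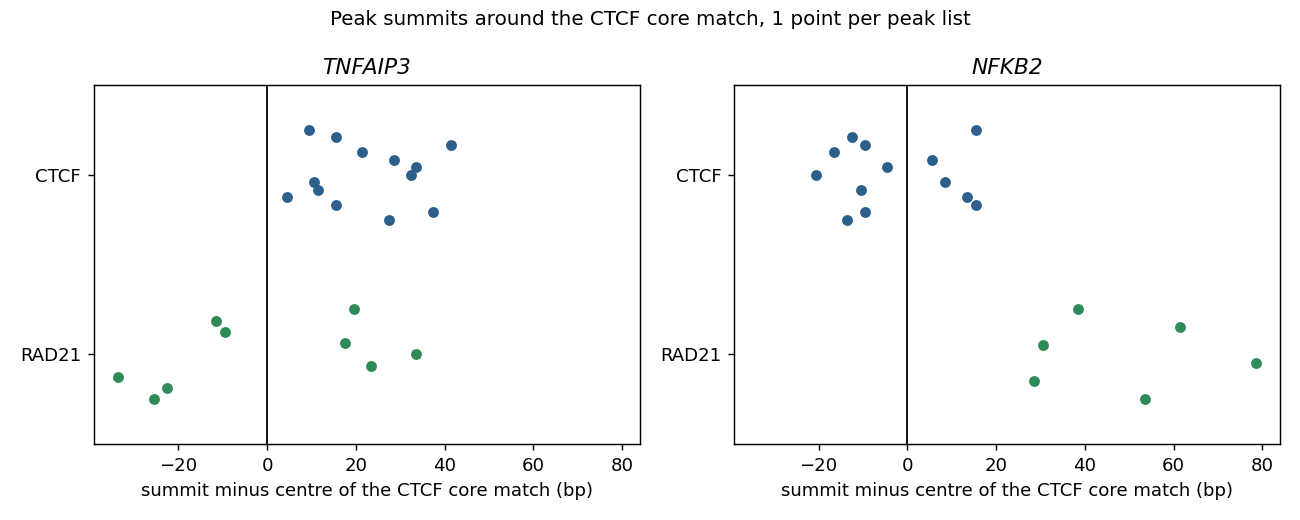
Distance in bp from the centre of the CTCF core match to each peak summit at the TNFAIP3 and NFKB2 promoters, along the gene's strand. Each point is 1 peak list (13 CTCF lists at both genes, 9 RAD21 lists at TNFAIP3 and 6 at NFKB2), height within a row only separates points, and CTCF summits stay within 41.5 bp of the line at 0.

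Matches to the kB motif, a site of 10 letters searched on both strands, were found in promoter windows of 5 of the 6 genes with a window in the table. TNFAIP3 had kB matches at positions -67 and -55 from its start, downstream of the CTCF core match at -126. NFKBIA had 1 match at -81, NFKB1 had 1 at -49 and BCL3 had 1 place at position 2 after its start. NFKB2 had 2 places in each of the windows at its later starts, and RELA had none in either of its windows. RELB had no window in the table. Counted by window, 6 of the 10 windows of these genes held the kB motif, beside 12.7% of all 22155 windows.

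Sequencing depth cannot be read from the lists, and list length is given in its place. At 1 h the CTCF lists held 35374, 34205 and 22018 peaks, against 59843, 43835 and 38571 without stress, and the RAD21 lists held 4761, 7843 and 6630, against 18297, 13762 and 24931. One RAD21 recovery list (replicate 2, 20400 peaks) stood apart from the other recovery lists (4397 and 6492). Pol II regions numbered 107396 and 216968 at 1 h and 105302 and 88046 without stress, but covered 9.28 and 10.6% of all gene bases at 1 h against 16.7 and 14.6%. A deposited -log10 q (the false discovery rate the caller gave a region, higher for stronger regions) under 1.3 was carried by 80 and 92.4% of the Pol II regions at 1 h and by 50 and 48.5% without stress. These list lengths and scores move with the groups, and their part in the results below was not tested except where an alternative is given. Of 10 luminal markers 8 had Pol II regions in both untreated lists, while KRT18 had none in any of the 4 lists and SPDEF none without stress. Over those 10 genes mean coverage was 25.4 and 48.5% at 1 h and 66.2 and 59.8% without stress. Over 10 markers of blood, fibroblasts, muscle and neurons it was 21.7 and 23.6% at 1 h and 17.5 and 13.1% without stress, with MYOD1 and NEUROD1 at 0 in all 4 lists, so a region on a gene is not taken here as expression. In lysed bulk chromatin, fewer cells with the protein bound and less protein per cell cannot be told apart.

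Whether polymerase over these genes changes after 1 h of NaCl was asked from the 4 Pol II lists. Coverage was lower at 1 h on RELA, BCL3 and NFKB1, where both 1 h libraries lay below both untreated ones. It was higher in that sense on 0 of the 7 spans. In NFKBIA, NFKB2, RELB and TNFAIP3 the groups overlapped. Lower coverage was common: 35.2% of all 19970 genes met the same rule in the lower direction and 16.1% in the higher, so 3 of 7 is near the background. The median difference of the 7 genes (1 h minus no stress) was -49.5 percentage points, beside -3.92 over the 18144 genes covered in at least 1 list. The median of the 7 is the value of NFKB2, whose untreated libraries disagreed, and it was -3.15 without untreated replicate 1 and -21.9 without 1 h replicate 2 (-2.13 and -4.55 over the covered genes). An exact 2-sided permutation test with 2 libraries against 2 cannot go below p = 0.33, and after Benjamini-Hochberg adjustment over all genes the smallest p for the span was 0.649. The count of 3 became 5 without untreated replicate 2, when NFKB2 and TNFAIP3 joined and 44.5% of all genes were lower. The count of 0 higher became 1 (RELB) without 1 h replicate 2, beside 21.8% of all genes, and 2 (RELB and TNFAIP3) without untreated replicate 1, beside 22.2%.

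**Figure D2:**
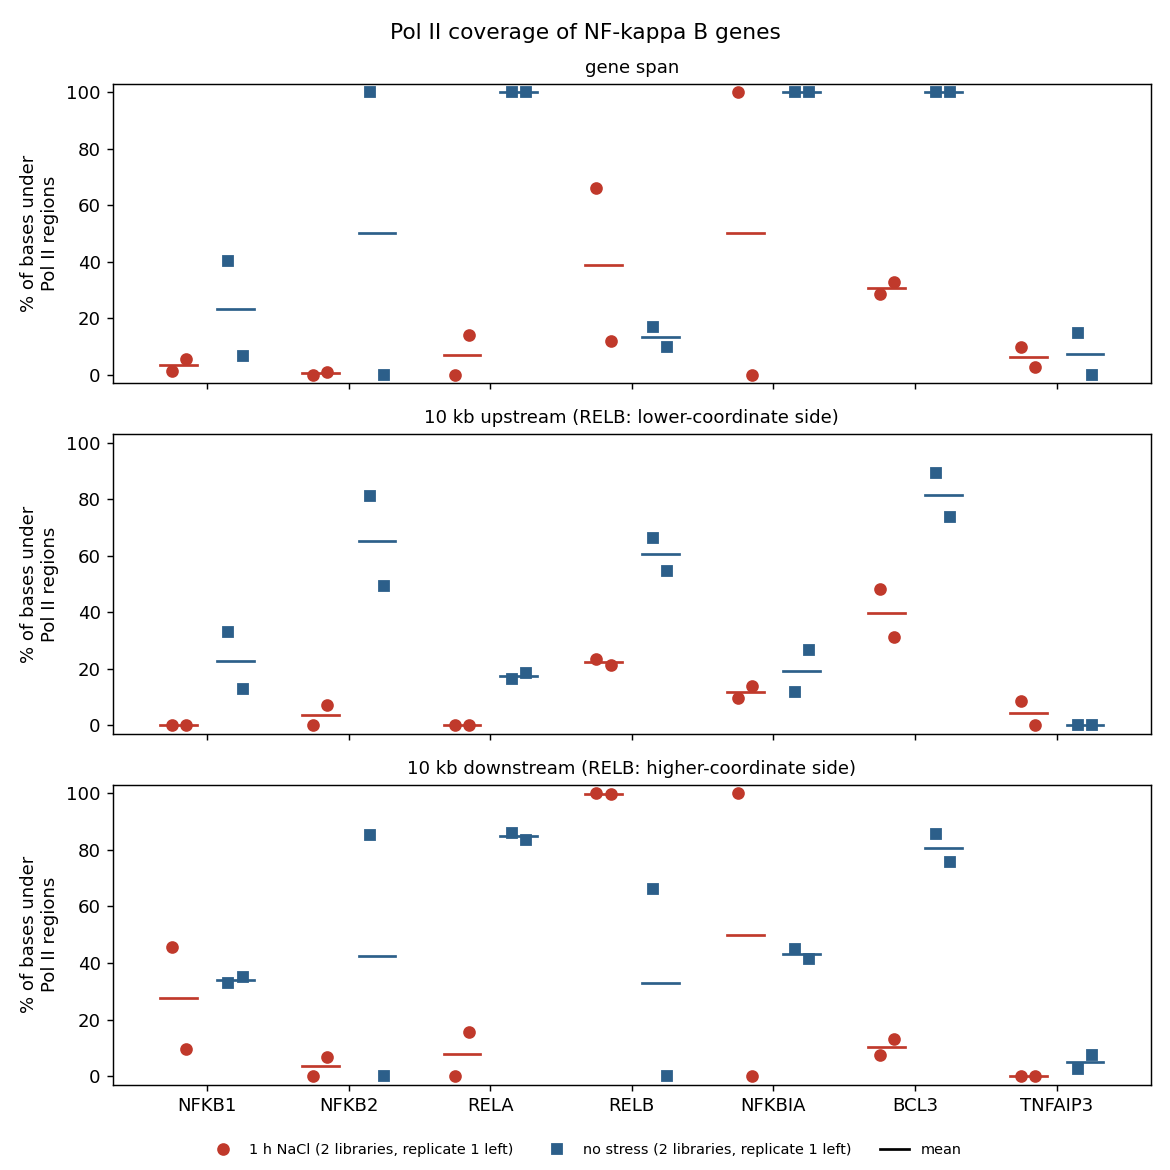
Percent of bases under Pol II regions in the span (top) and the 10 kb flanks of the 7 genes. Circles are the 2 libraries at 1 h of NaCl, squares the 2 without stress, and bars the mean of each pair. RELA and BCL3 show separated groups in every panel, and NFKBIA shows 1 h libraries at 100 and 0%.

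Of the subunit genes, RELA showed the widest separation. Its span (chr11:65653601-65663857) was 0 and 14.1% covered at 1 h and 100% covered in both untreated libraries, where single regions of 16940 and 17573 bp ran through the whole gene. The only region on the gene at 1 h was 1448 bp wide with a deposited -log10 q of 0, and the untreated regions had -log10 q values of 20.3 and 7.72. The 10 kb downstream, 73.1% of it inside SIPA1, went the same way with 0 and 15.6% at 1 h against 86 and 83.5%. Upstream there was no coverage in either 1 h library, against 16.5 and 18.6% without stress. Of all 19970 genes, 30.4% were lower on the lower-coordinate side (downstream of RELA) and 30.3% on the higher-coordinate side. Among the 1585 genes covered over their whole span in both untreated libraries, 66.2% were lower at 1 h.

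NFKB1, a gene of 115944 bp (chr4:102501359-102617302), had 1.45 and 5.58% of its span covered at 1 h and 40.1 and 6.66% without stress. The groups did not overlap, but untreated replicate 2 lay close to 1 h replicate 2. The deposited scores differed as well: 0 of 3 and 0 of 10 regions on the gene at 1 h had a -log10 q of at least 1.3, against 22 of 25 and 12 of 12 without stress. The call was lost once coverage was taken relative to each library's coverage of all genes. Its upstream 10 kb was uncovered in both 1 h libraries and covered over 33.1 and 12.8% without stress. On that side, the lower-coordinate one, 30.4% of all genes were lower. The downstream 10 kb had 45.7 and 9.63% covered at 1 h and 33.1 and 35% without stress, so there the groups overlapped.

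NFKB2 (chr10:102394110-102402529) had 0 and 0.962% of its span covered at 1 h, against 100 and 0% without stress. Untreated replicate 1 had a single region of 18809 bp over the whole gene with a -log10 q of 0.433, and untreated replicate 2 had none, so the groups overlapped. In the upstream 10 kb they did not, with 0 and 7.24% at 1 h and 81.3 and 49.2% without stress. On that side, the lower-coordinate one, 30.4% of all 19970 genes were lower by the same rule. The downstream 10 kb, 99.1% of it inside PSD, had 0 and 6.85% at 1 h and 85.1 and 0% without stress.

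RELB (chr19:45001464-45038192) did not share the lower coverage. Its span was 66.2 and 11.8% covered at 1 h and 16.9 and 9.73% without stress, so the groups overlapped. Relative to each library's coverage of all genes both 1 h libraries lay above both untreated ones, as for 23.3% of all genes. The table gives no strand for RELB, so its sides are named by coordinate. On the lower-coordinate side, 18.8% of it inside CLPTM1, coverage was 23.4 and 21.3% at 1 h and 66.4 and 54.6% without stress. On the higher-coordinate side, 91.5% of it inside CLASRP, it was 100 and 99.6% at 1 h and 66.2 and 0% without stress. The 1 h regions there were 44645 and 38523 bp wide, with -log10 q of 16.7 and 0.225. They covered all of CLASRP in both libraries, against 71.6 and 23.2% of CLASRP without stress. Most of the bases with higher coverage on that side thus belonged to the neighbouring gene. Untreated replicate 1 had narrower regions there with -log10 q of 28.5, 37 and 47.5, so width and score did not go together. Over the flank bases outside other protein-coding genes both 1 h libraries of RELB lay below both untreated ones, as for 32.7% of all genes. Of all 19970 genes, 12.6% were higher on the higher-coordinate side and 30.4% lower on the lower-coordinate side.

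Among the inhibitor genes, BCL3 (chr19:44747705-44760044) was lower over the span and both flanks. The span had 28.7 and 33% covered at 1 h and 100% in both untreated libraries. Upstream the values were 48.1 and 31.2% at 1 h against 89.2 and 73.7%, on the side where 30.4% of all genes were lower. Downstream they were 7.38 and 13% against 85.5 and 75.7%, where 30.3% of all genes were lower. The deposited scores did not follow the widths. The highest -log10 q on the gene was 5.61 in 1 h replicate 1, where 2 of 2 regions reached 1.3, and 0.0838 in 1 h replicate 2, while the untreated regions of 28142 and 23065 bp had 0.528 and 1.31. BCL3 was no longer called with regions under a -log10 q of 1.3 left out.

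NFKBIA (chr14:35401513-35404749) behaved differently in the 1 h replicates. Its span was covered over 100% in 1 h replicate 1 and 0% in 1 h replicate 2, and over 100% in both untreated libraries. In 1 h replicate 1 the covering region was 61799 bp wide, extended past the gene's 3′ end to chr14:35343907 and had a -log10 q of 0.324. The untreated regions were 8943 and 10048 bp wide, with -log10 q of 0.5 and 15.4. Downstream coverage was therefore 100 and 0% at 1 h and 45.1 and 41.4% without stress, and upstream coverage 9.56 and 13.9% at 1 h and 11.9 and 26.8% without stress. Whether NFKBIA kept or lost polymerase at 1 h was not decided by these lists, since without 1 h replicate 1 its span was lower and without 1 h replicate 2 its flanks were higher.

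TNFAIP3 (chr6:137866349-137883312) had at most 14.7% of its span under Pol II regions in any library, a share that measures width and not amount. Its span had 10 and 2.72% covered at 1 h and 14.7 and 0% without stress. A region of 1697 bp at the start of the gene in 1 h replicate 1 (-log10 q 2.03) overlapped one of 2498 bp in untreated replicate 1 (-log10 q 23.5). The other libraries had regions of at most 242 bp at 1 h and none without stress. Downstream there was no coverage at 1 h, against 2.48 and 7.45% without stress. On that side, the higher-coordinate one, 30.3% of all genes were lower at 1 h. Upstream the groups overlapped, with 8.81 and 0% covered at 1 h and 0% in both untreated libraries.

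With both flanks joined, NFKB1, NFKB2, RELA and BCL3 were lower at 1 h and 0 genes were higher, beside 39.4% lower and 14.2% higher among all 19970 genes. The smallest adjusted p over all genes was 0.622 by the same exact permutation test. The count lower was 6 without 1 h replicate 1, when NFKBIA and TNFAIP3 joined and 46.4% of all genes were lower, and 2 (NFKB1 and RELA) with regions under a -log10 q of 1.3 left out, beside 29.2%. Without 1 h replicate 2 NFKBIA and TNFAIP3 were higher (22.2% of all genes), and without untreated replicate 1 RELB was (19.3%).

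**Figure D3:**
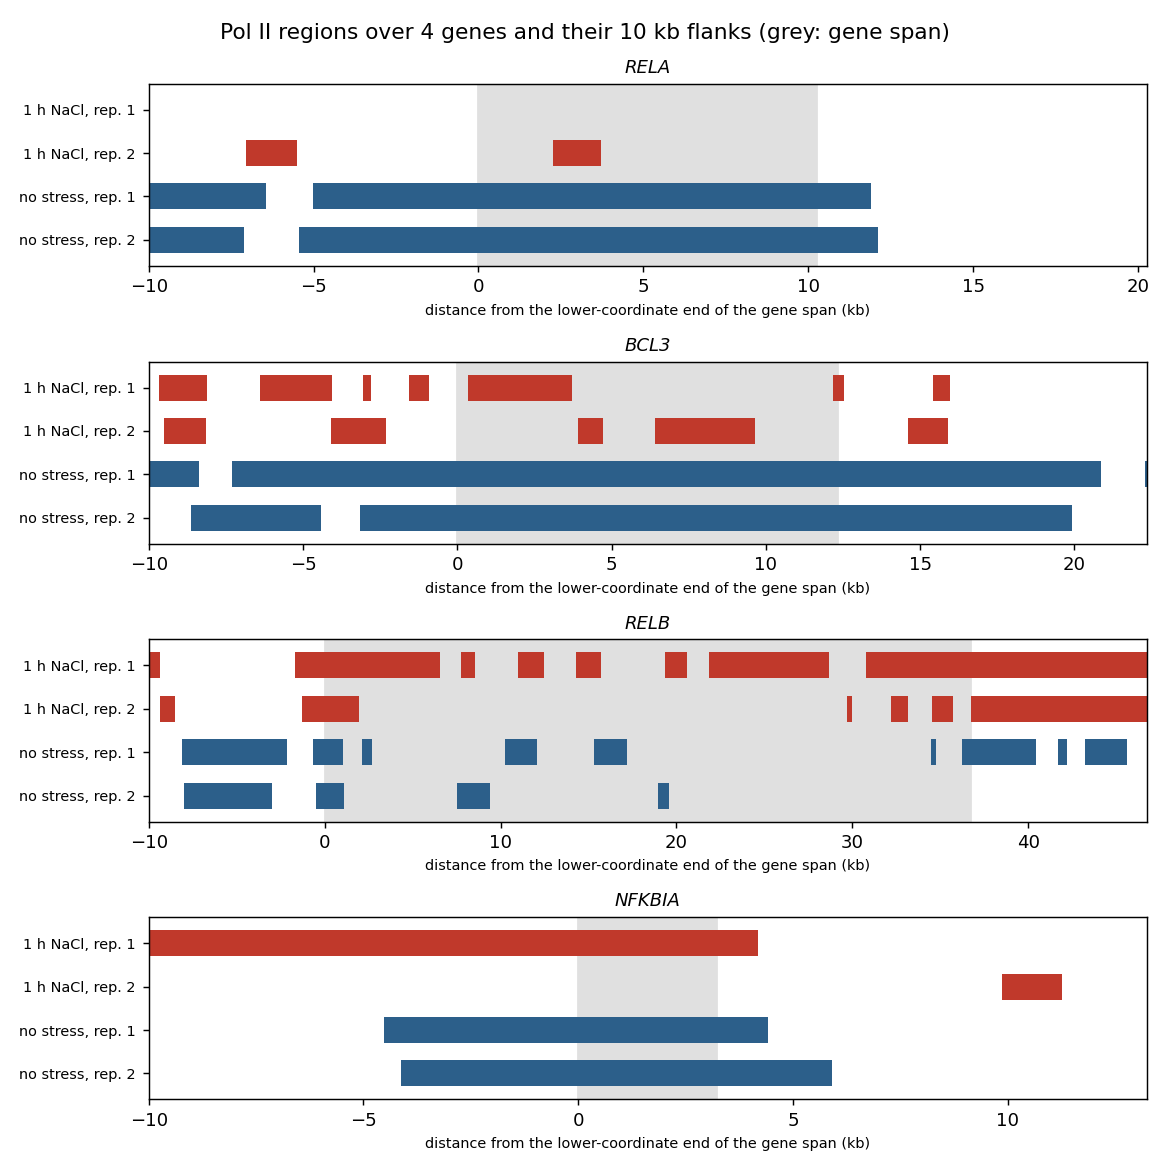
Pol II regions over RELA, BCL3, RELB and NFKBIA with 10 kb on each side, in kb from the lower-coordinate end of the span (grey). Bars are called regions of the 2 libraries at 1 h of NaCl (upper rows) and the 2 without stress (lower rows). Long untreated regions over RELA and BCL3 stand against short or absent ones at 1 h, the right side of RELB fills at 1 h, and the NFKBIA region of 1 h replicate 1 runs out of the frame.

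The genes with Pol II coverage most like NFKBIA over 12 values (span and flanks in 4 libraries, Euclidean distance, 15810 genes) were H2AZ1, RPS12 and GADD45G, at distances of 30.6, 35.9 and 40.1 percentage points. All 3 had the span pattern of NFKBIA, 100 and 0% at 1 h and 100% in both untreated libraries. For TNFAIP3 they were AFP, P2RY14 and STXBP6, at 11.4 to 12.7 percentage points.

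Other genes of the pathway were read in the same way from lists chosen by function. The 26 signalling genes encode a receptor, adaptors, IKK, related kinases and other regulators, some of which restrain the signal. Of these 26 genes, 14 were lower at 1 h and 4 higher, beside 35.2% lower and 16.1% higher among all genes. Their median difference was -12.5 percentage points. IKBKB, which encodes the kinase that phosphorylates IkBalpha, had 3.76 and 3.7% covered at 1 h and 84.3 and 50.1% without stress. TRAF6, a ubiquitin ligase of the interleukin-1 and Toll-like receptor branch, had 0 and 5.69% at 1 h and 82.4 and 54% without stress. Differences of -70 and -59.6 percentage points were found for RBCK1 and SHARPIN, which encode subunits of the linear ubiquitin assembly complex. RBCK1 had 36.6 and 23.4% at 1 h, but the 1 h libraries of SHARPIN disagreed, with 0 and 80.8%. Both genes were at 100% in both untreated libraries.

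The 4 signalling genes that were higher were MAP3K14, TRAF3, TRAF5 and IKBKG. MAP3K14, encoding the kinase NIK of the non-canonical branch, had 95.8 and 45.1% covered at 1 h and 23.6 and 16.5% without stress. TRAF3, encoding the adaptor that targets NIK for degradation, had 60.1 and 35.3% at 1 h and 13.2 and 8.04% without stress. TRAF5 was higher by 23.1 and IKBKG by 5.95 percentage points.

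Of 5 other Rel and IkB genes, NFKBIB and REL were lower (35.2% of all genes), by 24.8 and 12.4 percentage points in their means, and NFKBIE was higher. NFKBIE, encoding IkBepsilon, was covered over 100% in both 1 h libraries and over 1.83 and 1.79% in the untreated ones. The regions on it began before HSP90AB1, which encodes a cytosolic heat shock protein, and ran across that gene and SLC35B2. They were 31201 and 29540 bp wide at 1 h, with -log10 q of 39.5 and 13.8, and 12814 and 13303 bp wide without stress. At 1 h they ran past NFKBIE into TMEM151B, and without stress they stopped at its edge.

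Of 30 NF-kappa B target genes, 24 of them covered in at least 1 list, 6 were lower and 6 higher, beside the same 35.2 and 16.1% of all genes, and the median difference was 0. The lower ones were led by BCL2L1, an anti-apoptotic gene, with 8.94 and 14.2% at 1 h and 100% in both untreated libraries, then SOD2, CFLAR and CXCL2 with differences of -49.6, -43.4 and -11.9 percentage points. Leading the higher ones, BIRC3 (encoding cIAP2) had 56.2 and 34.1% at 1 h and 5.19 and 2.44% without stress. TRAF1, PLAU and ICAM1 followed with differences of 40.2, 28.4 and 24 percentage points. For PLAU, 1 h replicate 1 (31.8%) lay only just above untreated replicate 1 (31.1%).

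CTCF near the 7 genes formed 21 sites over the 13 lists, and 6 of them had a peak in every list. These were the promoter site of TNFAIP3, 3 sites of NFKB2 (at -44, 5566 and 9868 bp from its 5′ end), the site 15633 bp from the lower-coordinate end of RELB and a site 8701 bp upstream of NFKBIA. The rank of the TNFAIP3 peak differed between the submissions: its fold enrichment lay at the 13.5th to 87th percentile of its list in the 7 lists of set 1 (median 54.6) and at the 98.5th to 99.9th in the 6 of set 2. That fold is the authors' value for the peak and ranks it within its list alone. The difference between sets was not particular to TNFAIP3. From set 1 to set 2 the median percentiles of the 3 NFKB2 sites went from 40.3 to 93.6, 30.5 to 96.5 and 18.8 to 84.8. Those of the NFKBIA and RELB sites fell, from 69.7 to 51.4 and from 57.8 to 43.5. In set 2, the TNFAIP3 peak lay at the 99.9th percentile in recovery, the 98.7th at 1 h and the 99.7th without stress. The set 1 percentiles of replicates 1 and 2 were 75.8 and 54.6 at 1 h and 87 and 20.2 without stress. At 7.5 min they were 70.2 and 13.5, and the 30 min list had 19.2.

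In the comparison of 1 h of NaCl with no stress, the lists held 9, 8 and 10 CTCF peaks near the 7 genes at 1 h, against 16, 11 and 14 without stress. The groups did not overlap. The difference of means was -4.67 (9 ± 1 against 13.7 ± 2.52, SD, n = 3 each). With the 22018 strongest peaks of each list the counts were 8, 7 and 10 at 1 h and 8, 4 and 8 without stress, and the difference turned to 1.67. The cause was not tested. By gene, only NFKB1 had fewer peaks in every 1 h list (1 in each) than in every untreated one (6, 3 and 3), with p = 0.1 by an exact permutation test, the smallest that 3 against 3 allows, and 1 after adjustment over all genes. Of all 19970 genes 6.76% met that rule, and of the 17037 with a peak in at least 1 of these lists 7.92% did.

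Of 10 sites shared by the 3 untreated lists, 6 were kept in all 3 lists at 1 h, 1 was lost from all 3 and 3 were present in some. Across the genome 57.1% of 25596 such sites were kept and 5.85% lost. The kept sites were the 6 named above. The lost site lay 8471 bp past the 3′ end of NFKB1 (chr4:102625562-102625955), and the neighbouring site 3475 bp past that end stayed in 1 of 3 lists. At NFKBIA the site at the start of the gene (52 bp inside it) and the site 2382 bp upstream each stayed in 2 of 3 lists. The count of lost sites was 2 of 10 without 1 h replicate 2, beside 6.54% across the genome. It was 2 of 11 without untreated replicate 3, beside 22.8%. No CTCF site near these genes was gained.

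Over time, set 1 gave 16 and 11 CTCF peaks near the 7 genes without stress, 9 and 8 at 7.5 min, 7 in the single 30 min list and 9 and 8 at 1 h. With the 31074 strongest peaks of each list the counts were 8 and 8 at 7.5 min against 10 and 9 without stress, and the difference of means was -1.5 in place of -5. Of 11 sites shared by both untreated lists of set 1, 7 were kept and 1 lost at 7.5 min, beside 67.8% kept and 20.6% lost among 42508 sites. NFKB1 again had fewer peaks (1 and 1, against 6 and 3), where the exact permutation p could not go below 0.33. So did 21.1% of all genes and 25.8% of the 16293 with a peak in at least 1 of these lists.

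**Figure D4:**
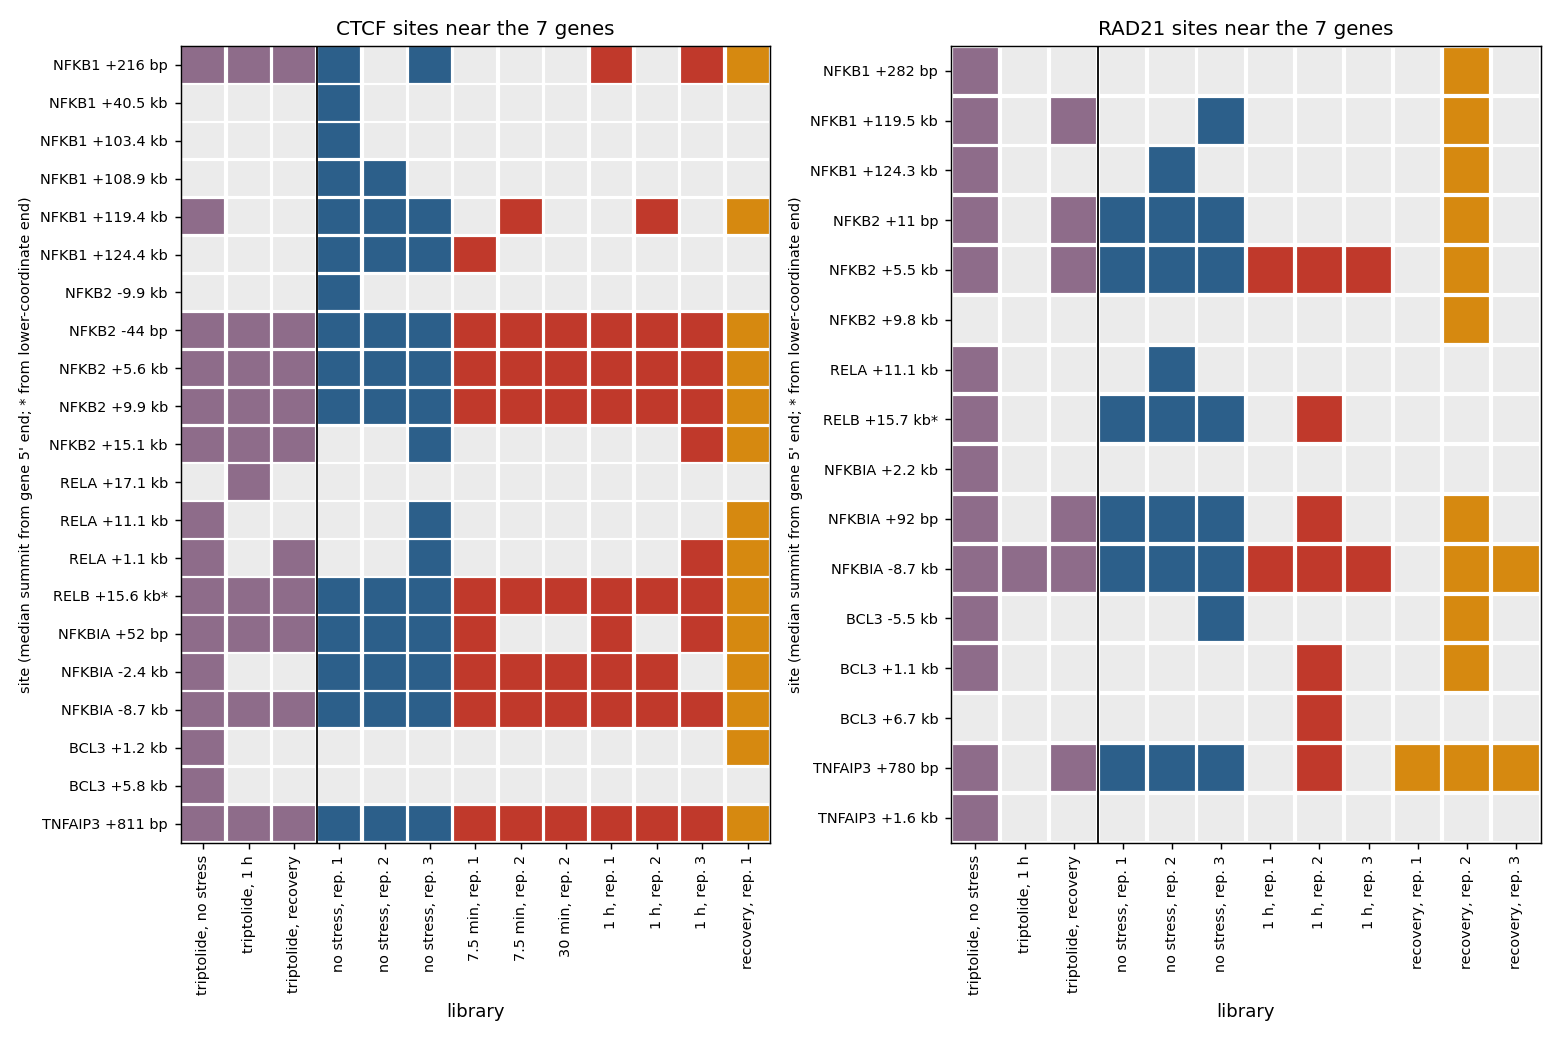
CTCF (left) and RAD21 (right) sites near the 7 genes, 1 row per site and 1 column per peak list. A coloured square marks a called peak (purple for triptolide, blue for no stress, red for NaCl, orange for recovery) and grey its absence. CTCF rows at NFKB2, RELB, TNFAIP3 and the upstream site of NFKBIA are filled in all 13 lists, while the RAD21 columns at 1 h hold 2, 7 and 2 filled squares.

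RAD21 near the 7 genes formed 16 sites, none of them in all 12 lists. Peaks near the genes numbered 2, 7 and 2 at 1 h and 7, 9 and 8 without stress, with a mean difference of -4.33 (3.67 ± 2.89 against 8 ± 1, SD, n = 3 each). Replicate 2 at 1 h reached the lowest untreated list, so the groups touched. With the 4761 strongest peaks of each list the counts were 2, 3 and 2 at 1 h and 3, 4 and 1 without stress. Peaks of RAD21 near these genes mostly lay on CTCF peaks of the same condition and set. This held for 2 of 2, 5 of 7 and 2 of 2 peaks at 1 h and 7 of 7, 8 of 9 and 7 of 8 without stress. Replicates 1 and 2 were matched to either of 2 CTCF lists and replicate 3 to 1. The share over all RAD21 peaks was not computed, so the overlap is not read as a trait of these genes.

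There were 6 RAD21 sites shared by the 3 untreated lists. The promoter site of NFKB2 was absent from all 3 lists at 1 h, the site 8657 bp upstream of NFKBIA and the site 5515 bp into NFKB2 were kept in all 3, and the sites at NFKBIA's start, in RELB and at the TNFAIP3 promoter were left in 1 h replicate 2 alone. Genome-wide, 32.4% of 10098 such sites were lost and 34.5% kept, and without 1 h replicate 2 the genes had 4 sites lost of 6, beside 46.4%. Without untreated replicate 3 the count lost was 2 of 7, beside 36.9%. At 5 of these 6 places CTCF had a peak in every list, and at the start of NFKBIA in 10 of 13.

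By gene, NFKB2 had 1 RAD21 peak in each 1 h list and 2 in each untreated list (exact permutation p = 0.1, adjusted p = 0.666 over all genes). That rule was met by 15% of all genes and by 24.4% of the 12314 with a peak in at least 1 of these lists. The upstream site of NFKBIA was the most constant RAD21 site, present in 11 of 12 lists at a median percentile of 82.6 within its list. It was also the only RAD21 peak near the 7 genes in the list of triptolide with 1 h of NaCl.

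After recovery in isotonic medium the RAD21 lists held 1, 11 and 2 peaks near the 7 genes, against 2, 7 and 2 at 1 h. Of 2 sites shared by the 1 h lists, the upstream site of NFKBIA and the inner site of NFKB2, 0 were kept in all recovery lists and 0 lost, beside 60.4% kept and 0.507% lost among 3748 sites. The mean difference of 1 turned to -2.17 without recovery replicate 2, the longest of the recovery lists. Recovery set against no stress (7, 9 and 8 peaks) gave -3.33. With the 4397 strongest peaks of each list the difference was 0 against no stress (1, 4 and 2 in recovery, 2, 4 and 1 without stress) and 0 against 1 h (2, 3 and 2). TNFAIP3 was the gene whose promoter site was present in all 3 recovery lists, against 1 of 3 at 1 h, and all 3 without stress. The peak's fold enrichment in recovery was 6.76, 15.6 and 4.8, each in units of its own list. That was 1 of the 6 sites shared by the untreated lists, beside 35.2% of 10095 sites kept in recovery across the genome. The RELB site was absent from all 3 recovery lists, where 2.02% of sites were, and the other 4 sites, at NFKBIA and NFKB2, were present in 1 or 2. Of all genes 0.926% had fewer RAD21 peaks in every recovery list than in every untreated list, and RELB was among them (0, 0 and 0, against 1, 1 and 1, exact permutation p = 0.1, adjusted p = 1).

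Triptolide was used to ask whether blocked transcription alters these changes, with 1 library per condition in set 2 and so no test. Its label is not certain, since the pre-treatment tag contradicts the title in 6 of the 12 libraries, and titles were followed. CTCF peaks near the 7 genes with triptolide were 15 without stress, 11 at 1 h and 10 in recovery, and without triptolide 14, 10 and 14. RAD21 peaks with triptolide were 15 without stress, 1 at 1 h and 7 in recovery, and without it 8, 2 and 2. The whole RAD21 lists moved in the same way, with 40969, 3344 and 22967 peaks under triptolide and 24931, 6630 and 6492 without it. At the TNFAIP3 promoter CTCF was present in all 3 triptolide lists, and RAD21 without stress and in recovery but not at 1 h. RELB kept its CTCF peak in all 3 as well, and had a RAD21 peak without stress alone.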

How the data were processed

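Chromatin immunoprecipitation with sequencing of Pol II, CTCF and RAD21 from T47D cells was analysed from 29 deposited lists, 1 per library. The 12 input samples have no list and were not used here. Per the submitters' processing notes, the build was hg38 and the tools were cutadapt, MACS2 and Bowtie2 (2.2.6), with HOMER, DESeq2 and DiffBind (2.4.6) listed for set 1 alone. Their roles, the controls and the peak calling thresholds are not given in the sources used. Each deposited peak has a fold enrichment (a ratio), a -log10 p value, a -log10 q value, a score and, for CTCF and RAD21, a summit offset, which the authors' lists give per peak and which were used only within a list.

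Coverage was the share of a RefSeq span under merged Pol II regions. CTCF and RAD21 peaks of the libraries compared were merged into sites at 1 bp overlap. A site was lost when in every untreated and no stressed list, and kept when in all. Groups were called different when they did not overlap, with exact 2-sided permutation tests over libraries and Benjamini-Hochberg adjustment over 19970 genes (Python 3.11.15, numpy 2.4.6, pandas 2.3.3). The computation was tested on simulated data. No depth is known, and 0 pairs of lists were identical. All 7 genes are named, with the up to 4 called genes of each list that differ most in each direction. Members and lists were chosen with earlier results of these data known.

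Titles give the groups, and a NaCl concentration of 110 mM that the series text states slightly differently. For the Pol II replicate 2 and the 30 min CTCF libraries a tag gives another replicate number than the title. Same-numbered CTCF libraries varied together around the mean of their group (correlations 0.126, 0.381 and 0.345 over 71635 sites), a pairing that rests on numbers in the titles and, for replicate 3, on the shared submission. Alternatives were a q filter, equal list lengths, other flanks and overlaps, relative coverage, set 1 alone, pairing and leaving out each library.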

Additional observations from a re-analysis of the deposited data

Results flagged for a closer look

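CTCF peaks near the 7 genes moved in opposite directions from 1 h of NaCl to recovery with and without triptolide. With triptolide there were 10 in recovery and 11 at 1 h, a difference of -1. Without triptolide there were 14 in recovery and 10 at 1 h of set 2, a difference of 4. Each value is 1 library, and the difference between the pre-treatments was not tested. The lists had 34517 peaks in recovery and 20678 at 1 h with triptolide, and 46377 and 22018 without it, so the list with triptolide was longer in recovery while its count near these genes was not higher. With equal numbers of strongest peaks the signs no longer differed. The difference was -3 with triptolide (8 in recovery and 11 at 1 h, 20678 peaks per list) and -2 without it (8 in recovery and 10 at 1 h, 22018 peaks per list). No group had enough libraries to test for single libraries far from the rest.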

How the results depend on the processing

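Of 178 alternative values, 143 moved by less than the spread between libraries or, for a count, stayed close to it, 31 moved further and 4 reversed. Of these alternatives, 5 were chosen after seeing the data. Among the 143 are the peak differences with the replicate block, which could not differ from the main values. The 143 include all 4 values of the median Pol II span difference with 1 library left out. These ranged from -50 to -3.15 and passed only because the spread between libraries was wide, so they do not show a stable median. With regions under a -log10 q of 1.3 left out, 2 genes were lower in the flanks. Relative to each library's coverage of all genes, 1 gene was higher in the span (23.3% of all genes) and 1 in the flanks (20.4%). With 20 kb flanks 1 was higher (17.7%), and it was RELB each time. Leaving out 1 library gave 3 to 5 genes lower and 0 to 2 higher in the span, and 4 to 6 lower and 0 to 2 higher in the flanks. With equal numbers of strongest peaks, the difference at 1 h was 1.67 for CTCF and -0.33 for RAD21, CTCF sites lost and kept were 0 and 2, RAD21 sites lost and kept were 0 and 1, CTCF with minus without triptolide was -1 without stress, and CTCF recovery minus 1 h was -2. The CTCF difference at 7.5 min was then -1.5, and RAD21 recovery differed by 0 from both 1 h and no stress. Within 5 kb, 0 CTCF sites were lost and 1 RAD21 site was kept, and within 20 kb 4 RAD21 sites were kept. In set 1 alone, 2 of 11 CTCF and 2 of 7 RAD21 sites were lost, beside 22.8 and 41% across the genome. Leaving out 1 library, the difference at 1 h lay between -6 and -3.5 for both factors, CTCF sites lost from 1 to 2 and kept from 6 to 7, RAD21 sites lost from 1 to 4 with 2 kept each time, CTCF at 7.5 min from -7.5 to -2.5, RAD21 recovery minus 1 h from -2.17 to 2.83, and recovery minus no stress from -6.5 to -1.5. For triptolide in RAD21 without stress (7), the difference was 4 with equal numbers of peaks, 6 at a -log10 q of at least 5, 6 within 5 kb and 10 within 20 kb. At 1 h it was -3 within 20 kb, and in recovery 1 with equal numbers and 8 within 20 kb. The cause was not tested in any of these.

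With the replicate block, the pairwise differences in Pol II span coverage gave 1 gene higher (RELB, as 18.4% of genes) and 3 lower. It changed no call in the flank counts. For the peak differences the mean of paired differences equals the difference of means. The CTCF and RAD21 values at 1 h (-4.67 and -4.33) therefore could not change, and they do not show how pairing matters. Same-numbered libraries correlated at 0.0429 for Pol II and at -0.0454, 0.203 and 0.0894 for RAD21. Not every value was over 0.1, so these numbers were not taken to pair the libraries, although the RAD21 replicate 3 libraries also share a submission.

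With 2 Pol II libraries a group no p under 0.33 was possible. The lists hold no read depth, so an absent peak is one not called in that list, not an absent protein.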

Other observations

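Some genes of the pathway had Pol II regions over their whole span in all 4 libraries. These were TRADD, the adaptor of the tumour necrosis factor receptor, and the target genes JUNB and EFNA1, each at 100% in every list. IER3, an immediate early target gene, had the pattern of NFKBIA (100 and 0% at 1 h, 100% in both untreated libraries), while ZC3H12A, which encodes an RNase that limits cytokine transcripts, had the opposite replicate order (0 and 100% at 1 h, 100% in both untreated libraries). IL6 had 12 and 31.9% at 1 h and no coverage without stress. These genes were chosen after their values were seen.

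BCL3 also had matches to the CTCF core in its promoter window, at positions -188 and -9, but CTCF peaks there were called in 2 of 13 lists only, in recovery and with triptolide without stress, with summits 172 and 186 bp from the match at -9. The matched letters, read on the strand of the motif, were CCGGGAGGGGGC and CCTGCAGCCGGC, which differ from those of TNFAIP3 and NFKB2.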
